A study of Homo sapiens with 4 samples.

Results

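Keratins are the intermediate filament proteins of epithelial cells, and the genes described here are those of simple and biliary epithelium, KRT7, KRT8, KRT18, KRT19, KRT20, KRT23, KRT80 and KRT81. They were chosen by name, with the intensities of these arrays, the ATO over control ratios and the gap between the cell lines already known, so all values of these genes are a description without a test. Of the 8 genes, 7 were measured among 19775 genes in all, and KRT81, a type II hair keratin, was not analysed here. No probe set of the annotation used named KRT81 alone, and probe sets naming several genes were not used for genes. RNA was profiled on U133 Plus 2.0 arrays from Affymetrix, which use sets of short probes, in Huh7 and Hep3B, established human hepatocellular carcinoma (HCC) lines. Each line gave 1 profile of cells under 3 μM arsenic trioxide (ATO) for 7 days and 1 profile of negative control (NC) cells under DMSO. No sample label or method names a separate culture or repeat behind a profile, so no condition has a replicate, and neighbours in the order of the levels cannot be told apart by a spread.

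Keratins assemble as pairs of a type I (acidic) and a type II (basic) chain. KRT8 (type II) and KRT18 (type I) form the filaments of hepatocytes and are the main keratins of most HCC cells, whereas KRT7 (type II) and KRT19 (type I) are added in bile duct cells and liver progenitor cells, which is why both serve as biliary markers and KRT19 also as a marker of stem-like HCC. KRT20 and KRT23 are type I keratins, KRT20 of gastrointestinal and urothelial epithelium, and KRT80 is a type II epithelial keratin found at desmosomes and along filaments in differentiating cells. The study followed cytokeratins at the protein level as readouts of stemness and differentiation. It named CK8 and CK19, the proteins of KRT8 and KRT19, and otherwise cytokeratin in general. Transcript levels in these 4 profiles ask how the keratin genes listed here stood in the RNA of each line, which is a different measure from protein.

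An intensity here is the deposited value of a probe set, a group of short probes for 1 transcript, on a linear scale. The median over all probe sets and profiles was 15.99, and a value under it is called dim. The 7 measured keratins had 11 probe sets, of which 5 were above this median in all 4 profiles, 4 were dim in all 4, and the others differed between profiles. KRT8 and KRT18 were each read by a single probe set whose identifier ends in _x_at. Such a probe set can bind related transcripts, so both genes are uncertain, and they are kept apart from the others in what follows. Each other gene was represented by its brightest probe set, and brightest here means the highest mean over the 4 profiles.

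RefSeq promoter windows on GRCh38.p14, from 250 bases before to 50 after an annotated start site, were held for 2 of the 8 genes. They are shown because no window was held for the other genes. KRT8 was bright in every profile and KRT20 dim in every profile, and a link between window and level was not tested. The KRT8 window lies at chr12:52926420-52926719 and the KRT20 window at chr17:40885193-40885492, both on the minus strand. KRT8 has several annotated transcripts, and the window belongs to 1 of them, which need not be the one the probe set reads. Capitals mark matches to TTGCNNAA, a C/EBP-like motif.
KRT8: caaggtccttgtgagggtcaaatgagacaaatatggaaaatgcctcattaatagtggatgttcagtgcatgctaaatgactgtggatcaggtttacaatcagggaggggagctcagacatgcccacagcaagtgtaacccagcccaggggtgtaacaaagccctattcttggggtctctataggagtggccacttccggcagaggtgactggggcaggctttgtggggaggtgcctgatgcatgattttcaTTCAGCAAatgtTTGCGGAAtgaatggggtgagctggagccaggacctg
KRT20: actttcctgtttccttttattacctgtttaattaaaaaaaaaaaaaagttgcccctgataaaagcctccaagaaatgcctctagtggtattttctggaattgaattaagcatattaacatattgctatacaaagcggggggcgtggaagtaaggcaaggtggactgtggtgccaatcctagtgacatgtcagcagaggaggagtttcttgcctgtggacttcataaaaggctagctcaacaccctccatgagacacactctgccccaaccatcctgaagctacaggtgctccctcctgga
Both strands were searched for 5 motifs. The C/EBP-like motif was found in the KRT8 window from bases 2 and 14 counted from the start site, once on each strand, and 10.5% of 35116 promoter windows of this length hold it. The AP-1 motif, TGANTCA, was found in neither window, and 7.71% of all windows hold it. The core of the antioxidant response element, TGACNNNGC, was also found in neither, and 13.3% of windows hold it. The same was true of the TATA box, searched as TATAAA and held by 11.5% of windows. It was true too of the GC box, searched as GGGCGG and held by 45.0% of windows. TGACNNNGC can overlap TGANTCA. GC content was 50.7% in the KRT8 window and 44% in the KRT20 window, against a median of 58.7% over all windows. A match is a run of letters and not a shown binding site.

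KRT80 and KRT7 were the keratins with the highest ATO over NC ratios, and both were above 1.5, the study's threshold, in both lines. KRT80 (probe set 231849_at) had an intensity of 119 in ATO-treated Huh7 cells, against 10.2 in NC Huh7 cells. In Hep3B it had 115 with ATO, against 16.4 in NC. The ATO profiles of the lines were thus close to each other, and the NC profiles lay near or under the median probe set. ATO over NC was 11.6 in Huh7 cells and 7.00 in Hep3B cells. On the log2 scale the lines averaged 3.17 ± 0.52 (SD, n = 2 lines). KRT80 ranked 2nd of 19775 genes in Huh7 and 13th in Hep3B. Because the NC value was dim in Huh7 and just above the median in Hep3B, the size of these ratios is uncertain. With 16 added to both intensities the ratios were 5.14 in Huh7 and 4.04 in Hep3B.

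KRT7 had an intensity of 164 with ATO, against 37.1 in NC, in Huh7. In Hep3B it had 70.9 with ATO, against 27.8 in NC. Both NC values lay above the median probe set, and the higher of the ATO values was that of Huh7. ATO over NC was 4.42 in Huh7 cells and 2.55 in Hep3B cells, 1.75 ± 0.56 on the log2 scale (SD, n = 2 lines). KRT7 ranked 15th among all genes in Huh7 and 116th in Hep3B. These values come from 1 of the 4 KRT7 probe sets, 209016_s_at, and the other 3 did not show them. The next brightest, 1558393_at, had 19.3 with ATO against 21.6 in NC in Huh7, and 21.2 with ATO against 18.4 in NC in Hep3B. The other two were dim in all profiles, with ratios between 0.847 and 1.25. With log2 values averaged over all 4 probe sets KRT7 had 1.44 in Huh7 cells and 1.27 in Hep3B cells, both under the threshold. Which probe set reads the main KRT7 transcript was not tested.

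**Figure D1:**
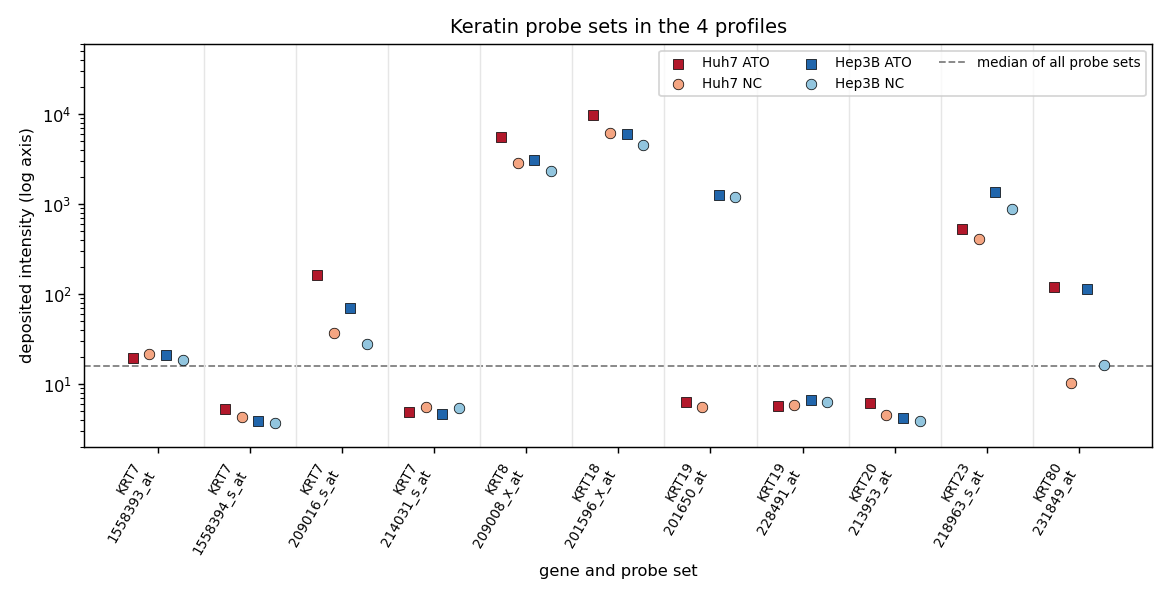
Deposited intensity (log axis) of the 11 keratin probe sets in the 4 profiles, ATO as squares and NC as circles, Huh7 in red and Hep3B in blue, with the median of all probe sets, 15.99, as a dashed line. KRT80 and the KRT7 probe set 209016_s_at were higher with ATO in both lines, and the KRT19 probe set 201650_at was far above the median in Hep3B and under it in Huh7.

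KRT8 and KRT18, the hepatocyte pair, had ratios above 1.5 in Huh7 and above 1 but under the threshold in Hep3B. KRT8 (209008_x_at) had an intensity of 5508 with ATO and 2869 in NC in Huh7, and of 3079.9 with ATO and 2327 in NC in Hep3B. KRT18 (201596_x_at) had 9701 with ATO and 6196 in NC in Huh7, and 5974 with ATO and 4485 in NC in Hep3B. For both genes the ATO-treated Huh7 profile was the highest of the 4 and NC Hep3B the lowest, and the middle profiles lay near each other. The KRT8 ratios were 1.92 in Huh7 and 1.32 in Hep3B, and the KRT18 ratios 1.57 and 1.33. On the log2 scale the lines averaged 0.67 ± 0.38 for KRT8 and 0.53 ± 0.17 for KRT18 (SD, n = 2 lines each). The log2 ratio of KRT8 exceeded that of KRT18 by 0.29 in Huh7 and differed from it by -0.01 in Hep3B. Both _x_at probe sets can also bind transcripts of the many processed keratin pseudogenes. Of KRT8P12, a KRT8 pseudogene, the brighter of the probe sets, 222060_at, had 79.5 with ATO and 55.0 in NC in Huh7, and 42.3 with ATO and 47.2 in NC in Hep3B. KRT8 and KRT18 lie next to each other on chromosome 12, and their annotated spans overlap on opposite strands.

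KRT23 was the gene of this group with the higher ratio in Hep3B. Its probe set, 218963_s_at, had an intensity of 530.4 with ATO and 405 in NC in Huh7, and of 1367 with ATO and 884 in NC in Hep3B. Both Hep3B profiles were above both Huh7 profiles. ATO over NC was 1.31 in Huh7 cells and 1.55 in Hep3B cells, 0.51 ± 0.17 on the log2 scale (SD, n = 2 lines). KRT23 thus passed 1.5 in Hep3B by a small margin. There it was between 1.52 and 1.59 under the 3 alternatives that changed its value, which can move a bright gene only little.

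KRT19 differed between the lines far more than with ATO. Its brighter probe set, 201650_at, had an intensity of 6.25 with ATO and 5.53 in NC in Huh7, both dim, against 1251 with ATO and 1185 in NC in Hep3B. The ATO over NC ratio was 1.13 in Huh7, between dim values, and 1.06 in Hep3B. The other KRT19 probe set, 228491_at, was dim in all 4 profiles, with 5.65 and 5.85 in ATO-treated and NC Huh7 cells and 6.69 and 6.39 in ATO-treated and NC Hep3B cells, and did not show the gap. KRT19P2, a KRT19 pseudogene, had 19.4 with ATO and 19.8 in NC in Huh7, and 17.9 with ATO and 18.5 in NC in Hep3B. KRT20 (213953_at) was dim in all 4 profiles, with 6.15 with ATO and 4.56 in NC in Huh7, and 4.16 with ATO and 3.85 in NC in Hep3B. Its ratios of 1.35 and 1.08 are thus ratios of dim values. These are bulk profiles, in which more cells of a type and more RNA per cell cannot be told apart.

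With 1 probe set per gene, all 7 measured keratins had a ratio above 1 in both lines, and 2 of the 7, KRT80 and KRT7, were above 1.5 in both. Of all 11 keratin probe sets, 8 were above 1 in Huh7 and 10 in Hep3B. The KRT20 ratios and the KRT19 ratio in Huh7 lie between dim values. Over all genes 32.1% were above 1 and 0.799% above 1.5 in both lines. Of all genes 67.8%, or 13401, reached the median probe set in at least 1 profile, as 6 of the 7 keratins did. Among those 13401 genes 1.16% were above 1.5 in both lines. In Huh7, 4 of the 7 were above 1.5 (KRT80, KRT7, KRT8 and KRT18), against 3.20% of all genes. In Hep3B, 3 were above it (KRT80, KRT7 and KRT23), against 5.07% of all genes. None of the 7 was below 0.67 in either line, where 3.25% of all genes in Huh7, 4.05% in Hep3B and 0.592% in both were. The median log2 ratio of the 7 genes was 0.65 in Huh7 and 0.41 in Hep3B, beside 0.01 and 0.04 over all genes. The ratio was higher in Huh7 than in Hep3B for 6 of the 7, KRT23 being the exception. The widest difference between the lines was that of KRT7, whose log2 ratio was 0.79 higher in Huh7, followed by KRT80 at 0.73 and KRT8 at 0.54. With 1 profile per condition these differences between the lines were not tested. As this contrast was known when the genes were chosen, their counts say nothing independent about the group. Among the spike-in controls, the 24 poly-A probe sets had a median of -0.28 for log2 of ATO over NC in Huh7 cells and -0.23 in Hep3B cells, and the 18 hybridization probe sets had 0.07 and 0.10. The part of either in the keratin ratios was not tested.

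**Figure D2:**
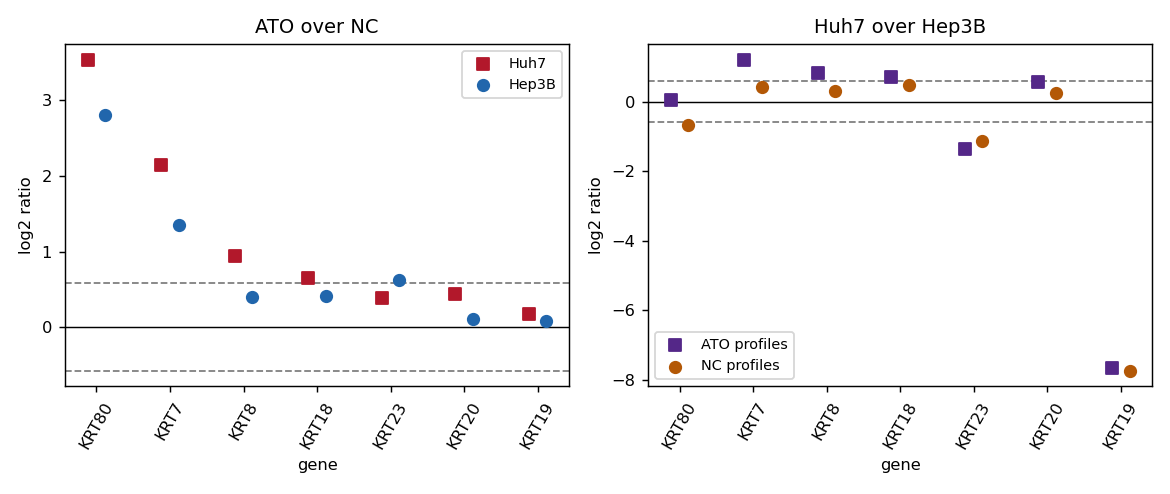
Log2 ratio of the 7 measured keratins, 1 probe set per gene, as ATO over NC within Huh7 and Hep3B (left) and as Huh7 over Hep3B within the ATO and the NC profiles (right). Dashed lines mark ratios of 1.5 and 0.67. KRT80 and KRT7 lie above 1.5 in both lines, and KRT19 lies near -8 in the comparison of the lines with and without ATO.

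Without ATO, the lines differed past the thresholds in KRT19, KRT23 and KRT80, all lower in Huh7. The Huh7 over Hep3B ratio of the NC profiles was 0.00467 for KRT19, the 4th lowest of all 19775 genes, 0.458 for KRT23 and 0.623 for KRT80. For KRT19 the Huh7 value was dim, so the size is uncertain, and with 16 added to both intensities the ratio was 0.0179. For KRT80 both NC values were near or under the median, and with 16 added the ratio was 0.809, within the thresholds. No keratin was above 1.5 in Huh7, the ratios of the other four running up to 1.38 for KRT18. Over all genes 15.4% were below 0.67 and 16.9% above 1.5 in this comparison, so 3 of 7 and 0 of 7 stand beside wide differences between the lines as a whole. Between the ATO profiles the Huh7 over Hep3B ratio was 0.00499 for KRT19, 0.388 for KRT23 and 1.03 for KRT80. It was 2.32 for KRT7, 1.79 for KRT8 and 1.62 for KRT18, against 1.34, 1.23 and 1.38 in the NC profiles. ATO-treated cells of the lines were thus closer in KRT80 and farther apart in KRT7, KRT8 and KRT18 than NC cells.

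The rest of the keratin family was mostly dim. Of 47 further keratin genes 37 were measured, and 29 of these were under the median probe set in all 4 profiles. Of all 19775 genes, 6374 were under it in all 4. None of the 37 was above 1.5 in both lines. KRT15 and KRT16, keratins of stratified epithelium, were above it in Huh7, at 1.75 and 1.63, from intensities of at most 31.8. KRT10, the brightest of the rest, is a type I keratin of differentiated epidermis and was at 1.06 in Huh7 cells and 0.828 in Hep3B cells. KRT222, a keratin-like gene, had 77.1 with ATO and 118 in NC in Huh7, and dim values of 5.03 and 8.97 in Hep3B. Its ratios were 0.652 and 0.561, and it was the 1 keratin of the 37 below 0.67 in both lines. The median log2 ratio of the 37 was 0.03 in Huh7 and 0.00 in Hep3B, and 10 of them were above 1 in both lines. By gene order in RefSeq, KRT80 and KRT7 are neighbours at one end of the keratin cluster of chromosome 12 and KRT8 and KRT18 stand at its other end, while KRT20, KRT23 and KRT19 lie in the cluster of chromosome 17. Of 21 measured keratins on chromosome 12, 7 reached the median probe set in at least 1 profile and 2 were above 1.5 in both lines. Of 23 on chromosome 17, 7 reached it and 0 were above 1.5 in both. Over all genes 67.8% reached it and 0.799% were above 1.5 in both.

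**Figure D3:**
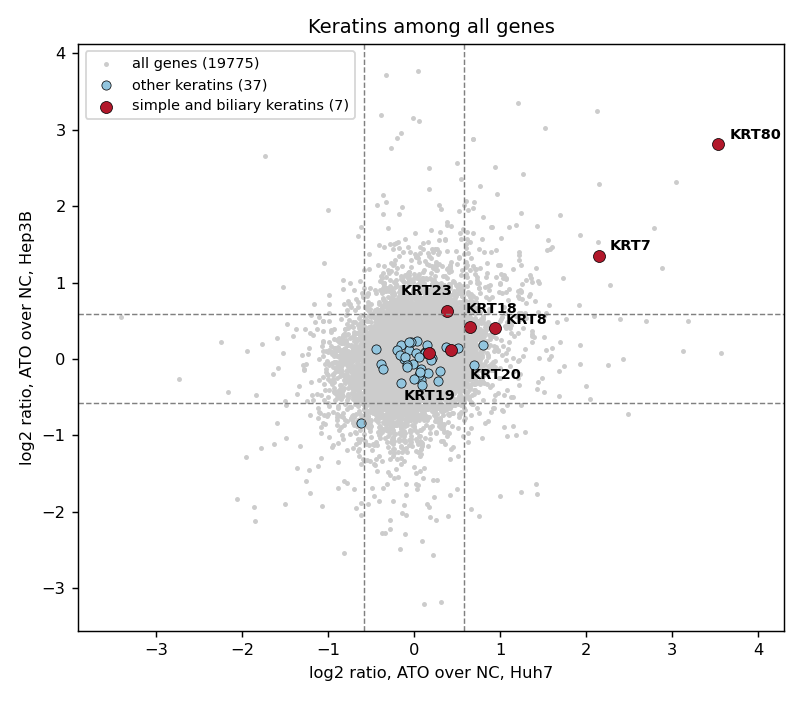
For each gene, log2 of ATO over NC, with Huh7 on the x axis and Hep3B on the y axis, for 19775 genes (grey), the 37 other keratins (blue) and the 7 simple and biliary keratins (red, named). Dashed lines mark ratios of 1.5 and 0.67. KRT80 and KRT7 lie at the upper right, and the other keratins lie mostly near the origin.

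Genes known to work with keratins were taken as lists. The lists were chosen with earlier results of these data known, so their counts are a description only. Over all genes, 0.799% were above 1.5 and 0.592% below 0.67 in both lines. Of 16 other intermediate filament genes, NES, the nestin of progenitor cells, was the 1 above 1.5 in both lines, with 33.2 with ATO and 20.9 in NC in Huh7 and 915 with ATO and 548 in NC in Hep3B. VIM, the mesenchymal vimentin and the brightest of that list, had ratios of 1.23 and 1.20. In Hep3B, PRPH, a neuronal filament protein, was above 1.5 at 3.16. INA, another, was below 0.67 there at 0.640, from dim values of 8.98 with ATO and 14.0 in NC. Both were at 1.24 in Huh7. Of 24 measured desmosome and linker genes, none passed a threshold in both lines. DSP, the desmoplakin that ties keratin filaments to desmosomes and the brightest of that list, had 2272 with ATO and 3063 in NC in Huh7, and 3405 with ATO and 4417 in NC in Hep3B, ratios of 0.742 and 0.771. PPL and ITGB4, a plakin and a hemidesmosome integrin, were above 1.5 in Huh7 only, at 1.69 and 1.67, and at 1.20 and 1.22 in Hep3B. ITGA6, the integrin partner of ITGB4, was below 0.67 in Hep3B, at 0.660, and at 0.825 in Huh7. The median log2 ratio was 0.22 in Huh7 and 0.19 in Hep3B for the intermediate filaments, and -0.00 and 0.04 for the desmosome list.

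Of 14 measured genes for keratin turnover and binding, 2 were above 1.5 in both lines, against 0.799% of all genes, and none was below 0.67. CRYAB, a small heat shock protein that binds intermediate filaments, had 68.5 with ATO and 28.5 in NC in Huh7, and 85.4 with ATO and a dim 15.96 in NC in Hep3B, ratios of 2.40 and 5.35. SFN, a 14-3-3 protein, a family that binds phosphorylated KRT18, had ratios of 1.64 and 1.59. TGM2 and SQSTM1, a transglutaminase and the p62 adaptor, both found with KRT8 and KRT18 in Mallory-Denk bodies of injured hepatocytes, were at 3.17 and 1.67 in Huh7 and at 1.40 and 1.30 in Hep3B. RNF4, a SUMO-targeted ubiquitin ligase, was above 1.5 in Hep3B, at 1.58, and at 1.06 in Huh7. UBB, a ubiquitin gene and the brightest of the list, was at 0.990 and 1.12. The list's median was 0.09 in Huh7 cells and 0.07 in Hep3B cells on the log2 scale.

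Of 22 measured regulators of epithelial keratin genes, KLF4, a Kruppel-like factor of differentiating epithelium, was the 1 above 1.5 in both lines. It had 253 with ATO and 86.9 in NC in Huh7, and 40.8 with ATO and a dim 15.2 in NC in Hep3B, ratios of 2.91 and 2.69. In Huh7 the other genes above 1.5 were the AP-1 subunits JUN, FOS and FOSL1, at 1.63, 1.58 and 1.80, of which FOS was dim. In Hep3B they were KLF5, FOSL2 and OVOL2, at 1.55, 1.59 and 1.65, KLF5 from a dim NC value of 15.8. JUND, the brightest of the list, was at 0.781 and 0.801. FOS, JUNB and SP3 were below 0.67 in Hep3B, at 0.603, 0.658 and 0.527, FOS with a dim ATO value of 10.9. The list's median on the log2 scale was 0.18 in Huh7 cells and 0.04 in Hep3B cells. Of 18 measured biliary genes, none was above 1.5 in both lines and CD24, a surface protein of progenitor cells, was the 1 below 0.67 in both, at 0.644 and 0.413. EPCAM, a progenitor adhesion molecule and the brightest of that list, was at 0.828 and 0.737. In Hep3B, SPP1 (osteopontin) and CFTR, a chloride channel, were above 1.5 at 1.66 and 1.93, both from dim NC values, and were at 1.12 and 1.25 in Huh7. SOX4, a transcription factor, was below 0.67 in Hep3B at 0.663, and at 0.774 in Huh7. ONECUT1, a transcription factor of liver and bile duct development, was below 0.67 in Huh7 at 0.564, and at 0.757 in Hep3B. The median log2 ratio of the biliary list was 0.06 in Huh7 and -0.01 in Hep3B.

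**Figure D4:**
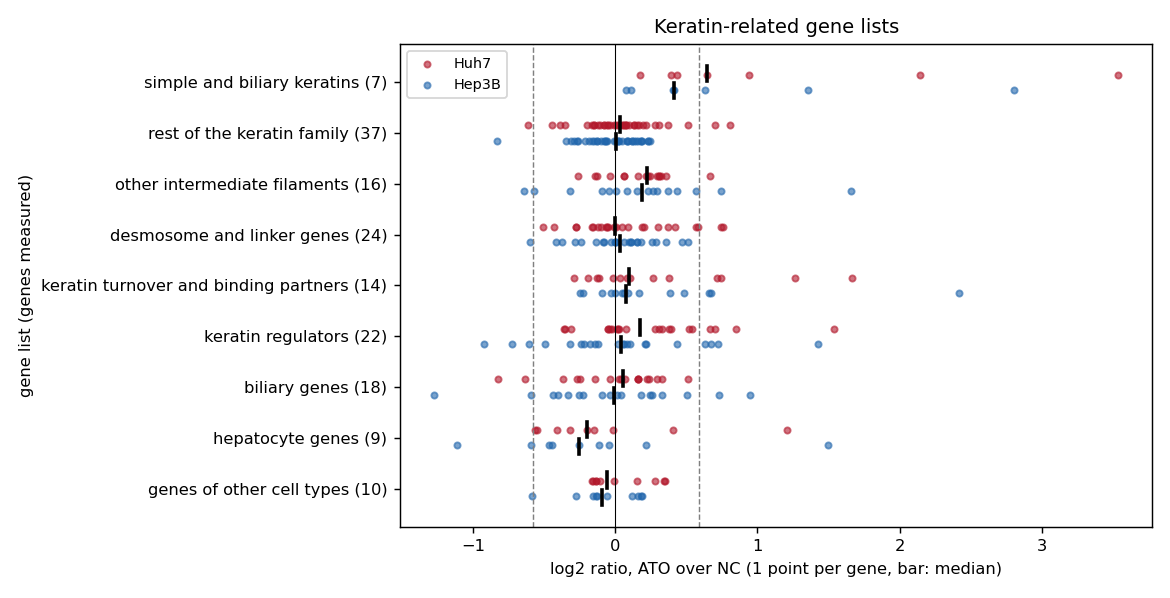
Log2 ratio of ATO over NC for the 7 keratins and 8 further gene lists, 1 point per gene, Huh7 in red above Hep3B in blue, black bars marking the medians and dashed lines ratios of 1.5 and 0.67. The bars of the 7 keratins lie at 0.65 and 0.41 and those of the other lists between -0.25 and 0.22.

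The labelled cell type was checked against hepatocyte genes, of which 9 of 10 were measured. All 9 reached the median probe set in at least 1 profile, as did 67.8% of all genes. The summed intensity of the 9 was 21671 with ATO and 25074 in NC in Huh7, and 43868 with ATO and 56249 in NC in Hep3B. ALB, albumin, was above 1.5 in Huh7, with 358 with ATO and 155 in NC, and had 10730 with ATO and 12803 in NC in Hep3B. SERPINA1, with the highest mean of the list over the 4 profiles, was at 0.803 in Huh7 and 0.663 in Hep3B. FGB, a fibrinogen chain, was above 1.5 in Hep3B, at 2.82, and at 0.752 in Huh7. AFP, alpha-fetoprotein, was below 0.67 in Hep3B, at 0.462, with 1646 with ATO and 3566 in NC. In Huh7 it was at 0.677, with 62.1 with ATO and 91.8 in NC. TTR and APOH were also far lower in NC Huh7, at 48.1 and 313, against 1704 and 9788 in NC Hep3B. For NC Huh7 over NC Hep3B, 5 of the 9 were below 0.67 and 1 above 1.5, against 15.4% and 16.9% of all genes. The highest values in NC Huh7 were those of SERPINA1, TF and APOB, at 12710, 6610 and 4109. Reaching the median is a low bar, as the next genes show. Of 10 genes of leukocytes, endothelium and fibroblasts, 5 reached the median in at least 1 profile, none was above 25.05 in any, and the summed intensity of the 10 ran between 121 and 130 in the 4 profiles. CD79A, a B cell gene, had the highest mean, with 23.6 with ATO and 23.7 in NC in Huh7, and 19.3 with ATO and 20.1 in NC in Hep3B. LUM, a fibroblast gene that was dim in all 4 profiles, was below 0.67 in Hep3B, at 0.665.

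The genes whose pattern over the 4 profiles was most like that of a keratin were found by the root mean square difference of log2 intensities centred per gene, over the 13401 genes that reached the median in at least 1 profile. For KRT80 they were GPX2, a glutathione peroxidase, CSTA, a cysteine protease inhibitor of epithelium, and C1orf105, at differences of 0.67, 0.73 and 0.84. These differences were larger than those for the other keratins, so none was a close match. ATO over NC in Huh7 and Hep3B was 7.37 and 2.27 for GPX2, 2.88 and 8.15 for CSTA, and 2.69 and 3.34 for C1orf105. For KRT80 it was 11.6 and 7.00. For KRT7 they were TXNRD1, a thioredoxin reductase, LOXL2, a collagen crosslinker, and FHL2, a LIM domain protein, at 0.18, 0.29 and 0.30. TXNRD1 was at 3.33 in Huh7 cells and 2.08 in Hep3B cells for ATO over NC. For KRT19 they were ESRP1, an epithelial splicing regulator, MEST and MGST1, at 0.12, 0.15 and 0.21. ESRP1 had 3.77 with ATO and 3.90 in NC in Huh7, both dim, and 950 with ATO and 816 in NC in Hep3B. As ESRP1 was picked for its likeness to KRT19, a line gap like that of KRT19 follows from the choice. For KRT8 they were CIDEC, GTF2H2B and KRT18, at 0.08, 0.09 and 0.10. KRT18 had MRTO4, TSKU and TGFBI at 0.03, 0.05 and 0.06, and KRT23 had RCN1, EFHD1 and EMC3-AS1 at 0.04, 0.04 and 0.06. These likenesses rest on 4 points per gene and carry no p-value.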

How the data were processed

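Gene expression was measured on Affymetrix U133 Plus 2.0 arrays in 4 samples, ATO and NC in Huh7 and Hep3B. Per the study's methods, the arrays were summarised with the Robust Multi-array Average, then log-transformed and normalized in simpleaffy. The intensity the authors deposited for each of 54675 probe sets is on a linear scale, between 2.24 and 14163.5. How the values came back to a linear scale, and how many arrays stand behind each column, are not given in the sources used here. The number of arrays limits the precision.

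From the probe annotation, 41097 probe sets named 1 gene symbol, 1801 several and 11777 none, and those of 1 symbol gave 19775 genes. A gene was read from its brightest probe set not ending in _x_at, or from its brightest _x_at probe set where it had no other (417 genes). Ratios were taken from the deposited intensities in Python 3.11.15 with pandas 2.3.3 and numpy 2.4.6, without a test, and called past 1.5 or 0.67. The threshold calls in both lines and the quantile normalization were tested on simulated data with an assumed noise, and the other steps were not. The keratins and the gene lists were chosen with earlier results of these data known. Of each list, the brightest gene and up to 4 genes past a threshold in both lines were named by rule, with the 3 genes nearest in pattern to each keratin that reached the median probe set. Promoter windows were matched by symbol and searched for exact motif letters. Genes past a threshold in 1 line only, KRT8P12 and KRT19P2 were chosen after their values were seen. The alternatives covered the choice of probe set, _x_at genes or dim genes left out, quantile normalization, division by the median, an offset of 16 and thresholds of 2 and 0.5.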

Additional observations from a re-analysis of the deposited data

Results flagged for a closer look

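Some values ran in opposite directions in the 2 lines, with 1 profile per condition, so the differences were not tested. The log2 ratio in Huh7 minus that in Hep3B was -0.37 for the KRT7 probe set 1558393_at, -0.12 for the dim KRT19 probe set 228491_at, 0.35 for KRT10 and 0.69 for the KRT8P12 probe set 222060_at. It was -0.18 for UBB, -0.27 for ESRP1 and 0.38 for MGST1, the last 2 from dim values in Huh7. These were drawn from the keratin and pseudogene probe sets, the genes named by rule and the genes nearest in pattern. All of these ratios lay between 0.67 and 1.5. Genes named only for passing a threshold were not covered, and some of them ran in opposite directions by more. FOS was at 1.58 in Huh7 and 0.603 in Hep3B, with dim values. ALB was at 2.31 and 0.838, and FGB at 0.752 and 2.82. JUN, JUNB, INA and KRT16 are further examples.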

How the results depend on the processing

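Of 184 single keratin values under the alternatives, 92 equalled the reported value because the alternative left that gene's probe set and intensities as they were, so they say nothing about stability. Of the other 92, 83 stayed within 1.5 times the reported value, and all kept their direction. Many of these could move little. The profiles were already normalized, with medians between 15.8 and 16.3, so quantile normalization and division by the median change a ratio little. An offset of 16 changes bright genes little. The 83 thus say little about stability. The 9 that moved farther belong to KRT7 and KRT19 with the mean of all probe sets, and to KRT19 and KRT80 with 16 added. With genes read only by _x_at probe sets left out, which removes KRT8 and KRT18, 2 keratins were above 1.5 in Huh7, and 2 were above 2 with the stricter thresholds. With the mean of all probe sets 1 keratin, KRT80, was above 1.5 in both lines. Over all genes, that mean gave 393 lower in Huh7, 478 lower in Hep3B and 74 lower in both, against 643, 800 and 117. Adding 16 gave 290 higher and 308 lower in Huh7, 566 and 525 in Hep3B, and 95 and 67 in both, against 633 and 643, 1002 and 800, and 158 and 117. Thresholds of 2 and 0.5 gave 154 higher and 94 lower in Huh7, 258 and 184 in Hep3B, 40 and 16 in both, and 1828 higher and 1731 lower for NC Huh7 over NC Hep3B, against 3342 and 3055. The cause of the moves was not tested beyond what each alternative removes. With 1 profile per condition in each of 2 lines no paired test was run, and no test was run on genes chosen with this contrast known. The ATO over NC ratios are already taken within each line.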
